A study of Mus musculus with 10 samples.

Results

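The 10 glutathione transferase genes described here are Gsta1, Gsta2, Gsta3 and Gsta4 of the alpha class, Gstm1 of the mu class, Gstp1 of the pi class, Gsto1 of the omega class, and the membrane-bound enzymes Mgst1, Mgst2 and Mgst3. They were chosen by symbol, through the Ensembl identifiers of the count table, and all 10 were found among its 43432 genes. The table holds RNA-seq counts of the mouse macrophage line RAW264.7, with no genetic change between groups, in 5 conditions with 2 libraries each. Cells with solvent alone (0.5% DMSO, called DMSO) and cells with solvent and lipopolysaccharide (LPS) at 1 µg/mL (DMSO + LPS) were compared with cells given **1**, a hexadecenoic acid of cyanobacteria whose keto group is conjugated to its double bond, at 3.2, 10 or 32 µM with LPS at the same concentration. Per the study's methods, **1** or solvent was added 1 h before LPS, and RNA was taken after 12 h. LPS was present at every dose, so **1** without LPS was not analysed here. The labels number the libraries as biological replicates without saying what separates them, so p-values measure the spread between these libraries, and everything rests on a single cell line.

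Glutathione transferases join the thiol of glutathione to electrophilic compounds, which marks them for export from the cell. The cytosolic alpha, mu, pi and omega classes differ in the substrates they prefer, and the membrane-bound enzymes also reduce lipid hydroperoxides or, in the case of Mgst2, can make cysteinyl leukotrienes. Several of these genes are textbook targets of Nrf2, the transcription factor that electrophiles release from Keap1.

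Library totals lay between 45966803 and 58976377 counts. Levels are given as CPM, the count scaled to a common library total after edgeR's TMM factors. All 7 macrophage markers examined (among them Cd68, Csf1r and Adgre1) held more than 10 counts in every library. Replicate 1 at 10 µM stood apart from the rest, with 738 counts summed over the epithelial markers Epcam, Cdh1 and Krt18, and replicate 1 at 3.2 µM had 115, where the other 8 libraries had 0 to 3. The 4 fibroblast markers gave 206 and 37 counts in these 2 libraries and 3 to 14 elsewhere. In replicate 2 at 32 µM the features Gm42418 and Gm23935, which lie over ribosomal RNA, took 3.61% of the counts, against 0.0646% to 0.263% in the other libraries. Calls at 10 and 3.2 µM are therefore also given without the 2 libraries that hold epithelial transcripts, and other results at these doses only in part. The treatments could be seen in Nqo1, a quinone reductase and Nrf2 target, which was 2.63 higher on the log2 scale at 32 µM than in DMSO + LPS (adjusted p = 6.37e-06), and in Nos2, the inducible nitric oxide synthase, which was lower by a log2 fold change of -2.19 (adjusted p = 5.43e-06).

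Of the 10 genes, 9 passed edgeR's count filter (minimum count 10) and were tested among 14148 genes by edgeR's quasi-likelihood test. Mgst1 did not pass. Calls required a 1.5-fold difference and an adjusted p (Benjamini-Hochberg, over all genes tested) below 0.05. The smallest p that an exact permutation test allows with groups of 2 is 0.333, and the calls therefore rest on a spread pooled over groups and genes. All comparisons of a dose with DMSO + LPS share the same 2 control libraries, and the comparison of DMSO + LPS with DMSO uses them as well. Where the libraries of 2 groups are said to lie apart, this describes the values of genes called on those libraries. The share of all genes that lie apart is not given here, so such statements add no support to the calls.

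On the scale of CPM per kilobase of exon, a rough scale for comparing genes, the family was dominated by Mgst3, Gsto1 and Gstm1 in unstimulated cells. Mgst3 stood at 44.2 ± 5.65 CPM per kb (SD, n = 2), Gsto1 at 26.8 ± 0.348 and Gstm1 at 16.9 ± 0.509. Mgst2 followed at 6.21 ± 0.444 and Gstp1 at 0.859 ± 0.153, and the 4 alpha genes and Mgst1 each lay below 0.1. The alpha genes together made up 0.187% of the summed level in DMSO. The order of the genes, the sums and the shares depend on the length used, the union of a gene's exons. This is 2023 bases for Gsto1, whose longest transcript has 1182, and 1097 bases for Mgst3, whose longest transcript has the same length. In plain CPM Gsto1 stood above Mgst3 in DMSO, at 54.2 against 48.5.

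The sum over the 10 genes was 95.2 ± 6.51 CPM per kb in DMSO and 57.6 ± 3.56 in DMSO + LPS. It was 60.5 ± 0.174 with **1** at 3.2 µM, 70.9 ± 8.17 at 10 µM and 84.2 ± 0.0254 at 32 µM. At 10 µM replicate 1, which holds epithelial transcripts, stood at 76.7 and replicate 2 at 65.1. All 4 libraries of DMSO + LPS and 3.2 µM lay below both libraries of 32 µM, and those lay below both of DMSO. The make-up differed as well: the share of Mgst3 was 46.3% in DMSO, 26.6% in DMSO + LPS and 19.1% at 32 µM, while the alpha genes held 0.187%, 2.63% and 13.8% of the sum. In bulk RNA, fewer cells of a type and less RNA per cell cannot be told apart.

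**Figure D1:**
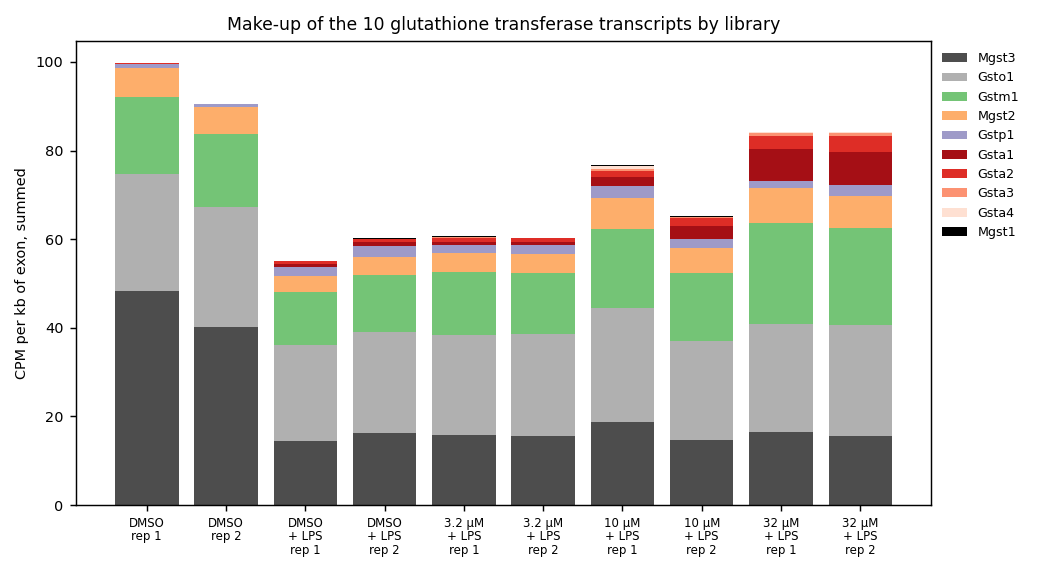
Stacked bars of CPM per kb of exon (vertical axis) for the 10 glutathione transferase genes in each of the 10 libraries (horizontal axis), 1 colour per gene; 3.2, 10 and 32 µM are doses of **1**. The bars of the 2 DMSO libraries reach 99.8 and 90.6 with Mgst3 as their largest part, and the red alpha segments are widest in the 2 libraries at 32 µM.

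LPS alone changed the family in both directions. Of the 9 genes tested, 3 rose (Gsta1, Gsta2 and Gstp1) and 2 fell (Mgst2 and Mgst3) in DMSO + LPS against DMSO, by edgeR's quasi-likelihood test. Among all genes tested 28.2% were called in this comparison, 14.6% higher and 13.6% lower. The median log2 fold change of the 9 genes was -0.27, against 0.0024 for all genes tested.

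The 2 alpha genes that rose with LPS were close to absent before it. Gsta1 had 1 and 0 counts in the DMSO libraries and 37 and 39 counts in DMSO + LPS. The groups did not overlap, and the ratio of the summed counts (76 against 1) was 84.2, with a 95% counting interval of 14.7 to 3368 (adjusted p = 3.19e-05). The only DMSO count is in replicate 1, so this ratio cannot be formed without that library. Gsta2 had 7 and 1 counts in DMSO against 41 and 36 with LPS, which is a log2 fold change of 3.38 (SE 0.51, adjusted p = 7.47e-04). The size of this value depends on the DMSO library used, with 5.20 when replicate 1 of DMSO was left out and 2.59 when replicate 2 was, and the gene was called in both fits. Gsta1 and Gsta2 share reads with each other and with Gm10639, and the 3 genes summed into 1 row rose by 4.09 on the log2 scale with LPS (SE 0.37, adjusted p = 4.10e-05). Counting intervals cover the sampling of reads alone. Gsta3 gave no such difference, with 17 and 20 counts in DMSO and 33 and 14 in DMSO + LPS (log2 fold change 0.46, 95% confidence interval -0.38 to 1.30).

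Gstp1, the pi-class enzyme, stood at 1.497 and 1.16 CPM in DMSO and at 3.09 and 3.77 CPM in DMSO + LPS. Both LPS libraries lay above both controls, with a log2 fold change of 1.36 (SE 0.25, adjusted p = 0.00241). Of the 150-base stretches of its longest transcript, 41.8% also occur in Gstp2 or Gstp-ps, so that reads could be shared with these copies.

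Per kilobase of exon union Mgst3 was above Gsto1 in DMSO and below it in the other 4 conditions. Mgst3 had 52.9 and 44.1 CPM in DMSO and 15.8 and 17.9 CPM in DMSO + LPS. It fell by 1.53 on the log2 scale (SE 0.13, adjusted p = 3.13e-05). Mgst2 went from 24.1 and 21.8 CPM to 13.0 and 15.3 CPM and fell by 0.70 (SE 0.12, adjusted p = 0.00143). In both genes the LPS libraries lay below both controls, but the genes were called on these same libraries. Gstm1 and Gsto1 differed less: the log2 fold change was -0.44 for Gstm1 (adjusted p = 0.00202) and -0.27 for Gsto1 (adjusted p = 0.0108), both under the 1.5-fold limit. With library totals alone in place of TMM scaling, the median of all genes moved to -0.20, the share of calls that were higher went from 51.8% to 35.0%, and Gstm1 was also called, at -0.65.

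**Figure D2:**
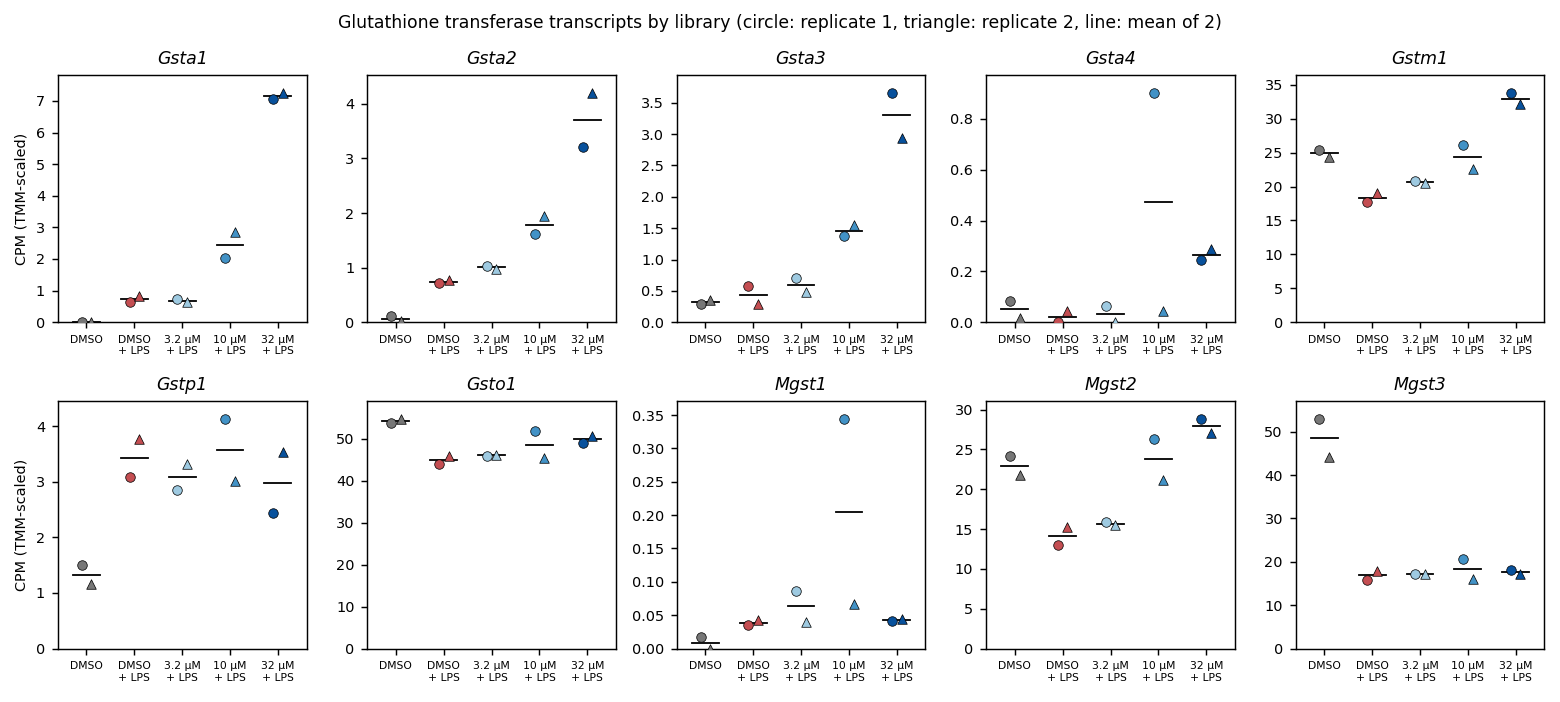
Level of each gene in CPM (vertical axes, 1 panel per gene, each from 0 with its own range) in the 5 conditions (horizontal axes); circles are replicate 1, triangles replicate 2 and lines the mean of the 2 libraries. Gsta1, Gsta2 and Gsta3 are highest at 32 µM of **1**, Gstm1 and Mgst2 dip in DMSO + LPS and are higher again at 32 µM, and Mgst3 stays low in all 8 libraries with LPS.

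At 32 µM **1** raised 5 of the 9 genes tested over DMSO + LPS and lowered 0 of them. The 5 were Gsta1, Gsta2, Gsta3, Gstm1 and Mgst2, so 3 alpha genes, a mu gene and a membrane-bound gene. By the same rule 4.20% of all genes tested were called at this dose, 1.29% higher and 2.91% lower. The median log2 fold change of the 9 genes was 0.98, against 0.0084 for all genes tested. The count of genes that fell was 0 also by DESeq2 and by edgeR's likelihood ratio test, and all 5 genes with an unadjusted p below 0.05 were higher.

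Gsta1 changed most among the called genes. Its 37 and 39 counts in DMSO + LPS compare with 346 and 328 counts at 32 µM, or 0.646 and 0.830 CPM against 7.07 and 7.25 CPM. The lowest of the 32 µM libraries lay far above both controls, with a log2 fold change of 3.28 (SE 0.27, adjusted p = 1.83e-04). Gsta2, its near-identical paralogue on the same chromosome, had 41 and 36 counts in DMSO + LPS and 157 and 190 at 32 µM. The log2 fold change was 2.32 (SE 0.38, adjusted p = 0.00622), and the gene was no longer called when replicate 1 or replicate 2 of the DMSO + LPS group was left out, with log2 fold changes of 2.27 and 2.37 (adjusted p = 0.0890 and 0.0752).

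Gsta1 lies at chr9:78230656-78242684 on the plus strand and Gsta2 at chr9:78331018-78355788 on the minus strand (GENCODE M21 on GRCm38). Their longest transcripts are identical at 96.7% of the aligned positions, and 73.7% of the 150-base stretches of Gsta1 and 26.8% of those of Gsta2 occur in another gene, all of them in Gsta1, Gsta2, Gm10639 or Gm3776. How reads were split among these genes is therefore uncertain. Gsta1, Gsta2 and Gm10639 summed into 1 row had 82 and 75 counts in DMSO + LPS and 503 and 522 at 32 µM. The sum was called as well, with a log2 fold change of 2.85 (SE 0.26, adjusted p = 2.94e-04). At 10 µM the sum was higher than in DMSO + LPS by 1.496 on the log2 scale and was called (adjusted p = 0.0240), but not without the 2 libraries with epithelial transcripts (1.67, adjusted p = 0.101). Gm3776 was not analysed here.

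The stretches before the RefSeq start sites of the 2 genes are printed here because the genes moved together. They are the bases before the first annotated exon within the 250 bases before the start (RefSeq, GRCm38.p6), and the 250 bases are identical at 70.5% of the aligned positions.
Gsta1, chr9:78230419-78230655, plus strand: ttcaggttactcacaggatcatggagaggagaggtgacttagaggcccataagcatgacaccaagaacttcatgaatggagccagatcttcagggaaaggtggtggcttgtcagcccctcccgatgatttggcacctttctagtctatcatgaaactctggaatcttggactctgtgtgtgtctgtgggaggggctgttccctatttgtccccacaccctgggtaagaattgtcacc
Gsta2, chr9:78347169-78347395, minus strand: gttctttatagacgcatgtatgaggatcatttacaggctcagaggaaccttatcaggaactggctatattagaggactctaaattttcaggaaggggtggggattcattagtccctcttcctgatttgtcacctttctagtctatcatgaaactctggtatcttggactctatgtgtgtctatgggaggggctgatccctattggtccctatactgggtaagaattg
Windows from 250 bases before to 50 bases after the start were searched on both strands for TGACNNNGC, the core of the antioxidant response element that Nrf2 binds, and for TGANTCA, the site of AP-1 factors, which was added after the windows had been seen. Neither motif occurs in the windows of Gsta1 and Gsta2. No match says only that these letters are not in these windows. The Gsta2 start used by RefSeq lies inside the gene as GENCODE annotates it.

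Gsta3, an alpha enzyme known in mice for conjugating the aflatoxin epoxide, had 33 and 14 counts in DMSO + LPS and 179 and 133 at 32 µM. The 32 µM libraries, at 3.66 and 2.94 CPM, lay above the controls at 0.576 and 0.298 CPM. The log2 fold change was 2.89 (SE 0.34, adjusted p = 0.00120). No 150-base stretch of its longest transcript (2792 bases) occurs in another gene by exact match. Its exons cover 4344 bases in all, and bases outside that transcript were not searched. The Gsta3 gene lies at chr1:21240589-21265661 on the plus strand, and the bases before its start, shown for the match in capitals, hold the only TGACNNNGC on the coding strand of any member's window.
Gsta3, chr1:21240335-21240584, plus strand: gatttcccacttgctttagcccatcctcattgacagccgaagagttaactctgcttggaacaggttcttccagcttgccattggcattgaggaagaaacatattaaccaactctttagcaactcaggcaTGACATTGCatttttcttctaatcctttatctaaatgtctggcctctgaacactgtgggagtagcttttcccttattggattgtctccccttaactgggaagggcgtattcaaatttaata
The match begins 121 bases before the start. Of the 11 windows found for 9 of the members (Gsta4 had none, Gstm1 and Mgst1 had 2 each), 2 held the motif, the other being a window of Mgst1, against 12.4% of all 32851 mouse windows.

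Gstm1, at chr3:108012255-108017973 on the minus strand, had 17.8 and 19.0 CPM in DMSO + LPS and 33.8 and 32.1 CPM at 32 µM. The groups were well apart, with a log2 fold change of 0.84 (SE 0.079, adjusted p = 3.49e-04). Mgst2, at chr3:51660360-51682677 on the plus strand, had 13.0 and 15.3 CPM in DMSO + LPS and 28.8 and 27.1 CPM at 32 µM. It rose by 0.98 on the log2 scale (SE 0.12, adjusted p = 0.00137). These are folds of 1.79 for Gstm1 and 1.98 for Mgst2, where the 3 alpha genes had folds of 4.99 to 9.71. Their levels per length in DMSO + LPS were 12.5 CPM per kb for Gstm1 and 3.82 for Mgst2, against 0.772 for Gsta1, 0.630 for Gsta2 and 0.101 for Gsta3.

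The Mgst2 window holds no TGACNNNGC but has a TGANTCA match 52 bases before the start, in capitals here. This start, too, lies inside the gene as GENCODE annotates it.
Mgst2, chr3:51660929-51661177, plus strand: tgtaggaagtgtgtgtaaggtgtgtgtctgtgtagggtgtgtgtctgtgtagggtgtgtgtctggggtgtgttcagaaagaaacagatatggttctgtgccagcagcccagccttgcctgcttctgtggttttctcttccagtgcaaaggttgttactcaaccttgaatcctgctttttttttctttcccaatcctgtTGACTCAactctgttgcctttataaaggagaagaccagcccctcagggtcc
The same motif occurs in the Gstp1 window, 74 bases before the start, in no other member's window, and in 7.81% of all mouse windows. Mgst2 and Gstp1 moved in opposite directions with LPS, and Gstp1 was not called at any dose against DMSO + LPS.

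The other 4 genes tested were not called at 32 µM. Gsto1, the omega-class enzyme with thioltransferase activity, stood at 43.9 and 45.998 CPM in DMSO + LPS and at 49.0 and 50.8 CPM with **1**. The log2 fold change was 0.15, with a 95% confidence interval of -0.0076 to 0.31, so a change of 1.5-fold lies outside it. For Mgst3 it was 0.068 (-0.24 to 0.38), with 15.8 and 17.9 CPM in DMSO + LPS and 18.1 and 17.1 at 32 µM. For Gstp1 it was -0.20 (-0.77 to 0.37), which does not exclude a 1.5-fold decrease.

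Gsta4, known for conjugating the aldehydes of lipid peroxidation, was at the limit of detection. It had 0 and 2 counts in DMSO + LPS and 12 and 13 counts at 32 µM. The ratio of summed counts was 13.8 with a counting interval of 3.45 to 121. Gsta4 passed the count filter only through these 32 µM libraries and replicate 1 at 10 µM (42 counts), where it was high. The separation and the ratio are therefore no support for a rise. Gsta4 was not called (adjusted p = 0.272), except in a fit that included each library's short-transcript score (adjusted p = 0.0442). This score is the median relative level of 1400 genes with transcripts under 1000 bases. Mgst1, which has peroxidase activity in the endoplasmic reticulum and mitochondria, had 2 and 2 counts in DMSO + LPS and 2 and 2 at 32 µM, and 0 to 16 counts over all libraries. No difference in Mgst1 was detectable at this depth.

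**Figure D3:**
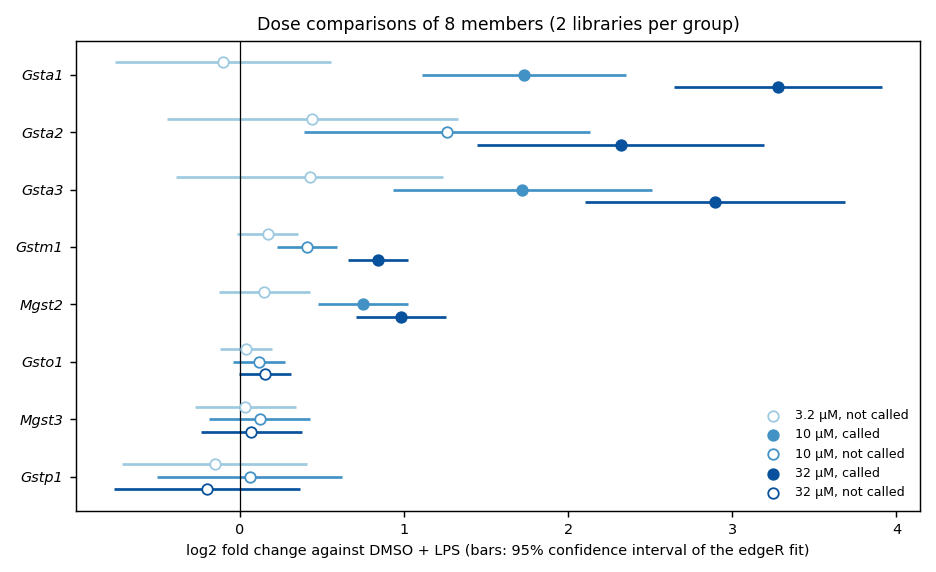
Log2 fold change against DMSO + LPS (horizontal axis) of 8 genes (vertical axis) at 3.2, 10 and 32 µM of **1**, with 95% confidence intervals of the edgeR fit as bars and filled points for called genes; Gsta4 and Mgst1 are left out for their low counts. The values of Gsta1 go from -0.10 to 1.73 and 3.28 with dose, while those of Gsto1, Mgst3 and Gstp1 stay near 0.

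At 10 µM the 5 genes called at 32 µM were higher than in DMSO + LPS by smaller values, and 3 of the 9 genes were called, all higher, among 0.862% of all genes tested (0.283% higher and 0.580% lower). Gsta1 had 95 and 129 counts, a log2 fold change of 1.73 over DMSO + LPS (SE 0.27, adjusted p = 0.0159). Gsta3 had 64 and 70 counts and 1.72 (SE 0.34, adjusted p = 0.0433), and Mgst2 had 26.3 and 21.2 CPM and 0.75 (SE 0.12, adjusted p = 0.0174). In these 3 genes both 10 µM libraries lay above both controls, but the genes were called on these same libraries. Gsta2 had 75 and 88 counts and a log2 fold change of 1.26 that missed the threshold (adjusted p = 0.184), though DESeq2 called it (adjusted p = 0.0295). Gstm1 was 0.41 higher (adjusted p = 0.0406), under the fold limit. Without the 2 libraries with epithelial transcripts the log2 fold change was 0.30 for Gstm1 and 1.39 for Gsta2.

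The calls at 10 µM depend on single libraries. Without the 2 libraries that hold epithelial transcripts 0 of the 9 genes were called by edgeR, though the log2 fold change of Gsta1 was then 1.95 (adjusted p = 0.0598), that of Gsta3 1.80 (adjusted p = 0.167) and that of Mgst2 0.58 (adjusted p = 0.163). Leaving out replicate 1 or replicate 2 of DMSO + LPS also left 0 calls, with log2 fold changes of 1.56 and 1.92 for Gsta1 (adjusted p = 0.193 and 0.107). Leaving out replicate 1 at 10 µM, or either library at 3.2 µM, left Gsta1 alone, and leaving out replicate 2 at 10 µM or either library at 32 µM left Gsta1 and Mgst2. Gsta3 was not called in any fit that left out a library, with adjusted p between 0.0705 and 0.241, and Gsta2 was called without either DMSO library (adjusted p = 0.0358 and 0.0353). The direction of Gsta1, Gsta3 and Mgst2 was the same in each of these fits. Gsta4 and Mgst1 had 42 and 16 counts in replicate 1 at 10 µM, the library with 738 epithelial counts, but 2 and 3 counts in replicate 2.

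At 3.2 µM edgeR called 0 of the 9 genes, and 0 of all genes tested, of which 601 had an unadjusted p below 0.05. Over all genes DESeq2 called 8, the likelihood ratio test 3, and a fit of only the 4 libraries compared 66 (48 higher and 18 lower). None of the 9 members had an unadjusted p below 0.05, 0 were called by DESeq2 or the likelihood ratio test, and 0 were called without the 2 libraries named above. Gsta1 had 34 and 32 counts, a log2 fold change of -0.10 with a confidence interval of -0.76 to 0.56. The interval was -0.44 to 1.33 for Gsta2 and -0.39 to 1.24 for Gsta3, so that a 2-fold rise lies within both. It was narrower for Mgst2 (-0.13 to 0.42), Gstm1 (-0.016 to 0.35) and Gsto1 (-0.12 to 0.19), all of them within 1.5-fold.

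Direct tests between neighbouring doses called Gsta1 alone. From 3.2 to 10 µM it rose by 1.83 on the log2 scale (SE 0.27, adjusted p = 0.0288), where 0.254% of all genes were called, and from 10 to 32 µM by 1.55 (SE 0.25, adjusted p = 0.0163), where 1.32% were (0.170% higher and 1.15% lower). The sum of Gsta1, Gsta2 and Gm10639 was called from 10 to 32 µM (log2 fold change 1.35, adjusted p = 0.0264) but not from 3.2 to 10 µM (1.33, adjusted p = 0.0726). Without the 2 libraries with epithelial transcripts the sum was called in neither step (1.18, adjusted p = 0.204, and 1.57, adjusted p = 0.512). Gsta1 alone then had log2 fold changes of 2.15 from 3.2 to 10 µM and 1.33 from 10 to 32 µM, and neither was called (adjusted p = 0.298 and 0.128). The first call was also lost without either library of DMSO + LPS, 3.2 µM or 32 µM and without replicate 2 at 10 µM, with log2 fold changes of 1.56 to 1.93 and adjusted p up to 0.354. The second was lost without either library at 32 µM, with log2 fold changes of 1.57 and 1.53 (adjusted p = 0.0925 and 0.110). Between 10 and 32 µM the values were 1.06 for Gsta2 (adjusted p = 0.258), 1.17 for Gsta3 (adjusted p = 0.131), 0.44 for Gstm1 (adjusted p = 0.0276, under the fold limit) and 0.23 for Mgst2 (adjusted p = 0.487).

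The 32 µM cells were also set against DMSO, the state before LPS. Of the 9 genes, 4 were higher than in these unstimulated cells (Gsta1, Gsta2, Gsta3 and Gstp1) and 1 was lower (Mgst3), where 27.2% of all genes tested were called. With library totals alone the median of all genes moved to -0.18 and the share of calls that were higher from 51.0% to 34.7%, and the same 5 genes were called. Gsta1 had 674 counts in sum against 1, a ratio of 827 with a counting interval of 148 to 32695. Without replicate 1 of DMSO this ratio, too, cannot be formed. The log2 fold change was 5.69 for Gsta2 (adjusted p = 3.19e-05; 7.52 without replicate 1 of DMSO and 4.89 without replicate 2), 3.35 for Gsta3 (adjusted p = 9.83e-05) and 1.16 for Gstp1 (adjusted p = 0.00564).

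Mgst2 and Gstm1, which stood lower with LPS, had means above those of unstimulated cells at 32 µM. Mgst2 had 28.8 and 27.1 CPM against 24.1 and 21.8 in DMSO (log2 fold change 0.28, adjusted p = 0.0769), and Gstm1 had 33.8 and 32.1 CPM against 25.5 and 24.4 (0.40, adjusted p = 0.00309, under the fold limit). Mgst3 remained lower, with a log2 fold change of -1.46 (SE 0.13, adjusted p = 4.33e-05). Mgst3 and Mgst2 thus both fell with LPS, and of the 2 only Mgst2 was called higher with **1**. Their difference from each other was not tested.

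Of 24 other genes of the same superfamily 12 could be tested, and LPS raised 4 of these 12 genes and lowered 2, where 14.6% of all genes tested were called higher and 13.6% lower. Gstt4, a theta-class gene, had 0 and 4 counts in DMSO and 653 and 590 in DMSO + LPS. Gstp3, a pi-class gene, had 1 and 1 counts and then 314 and 294, a ratio of 337 with a counting interval of 92.8 to 2787. Gstt1 had 3 and 6 counts and then 106 and 99, and Ptges, the inducible prostaglandin E synthase, was 2.42 higher on the log2 scale (adjusted p = 1.27e-06). Gstt4, Gstp3 and Gstt1 thus started from 2 to 9 counts summed over both DMSO libraries, and Gsta1 from 1. The 2 that fell, Ltc4s and Alox5ap of leukotriene synthesis, were named after their values were seen.

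At 32 µM edgeR called 0 of the 12 higher and 3 lower than DMSO + LPS, where 1.29% of all genes were called higher and 2.91% lower, and 2 had an unadjusted p below 0.05 in the higher direction (0 called higher by DESeq2 or the likelihood ratio test). Gstt4 had 171 and 135 counts and fell by 1.88 on the log2 scale (SE 0.25, adjusted p = 0.00211). Gstt1 had 49 and 37 counts and fell by 1.12 (SE 0.24, adjusted p = 0.0229; not called without the 2 libraries with epithelial transcripts, -1.12, adjusted p = 0.0520), and Gstp3 had 154 and 147 counts and fell by 0.87 (SE 0.17, adjusted p = 0.0167). The comparison with LPS and that at 32 µM share the 2 DMSO + LPS libraries, so a gene high in these by chance would appear to rise in the first and fall in the second, and the 2 directions are not independent. Side by side, among the family genes called higher with LPS, Gsta1 and Gsta2 were called higher and Gstt4, Gstt1 and Gstp3 lower with **1**, while Gstp1 and Ptges were not called.

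**Figure D4:**
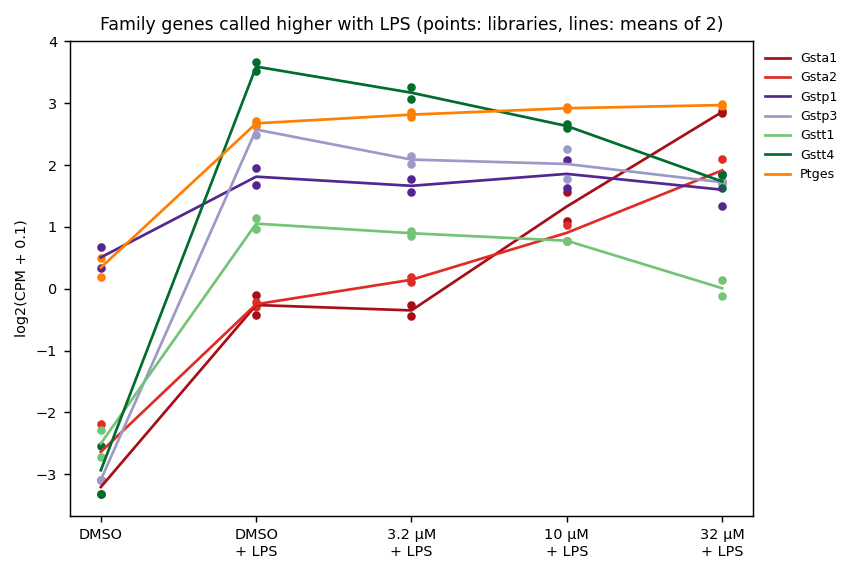
Log2 of CPM + 0.1 (vertical axis) in the 5 conditions (horizontal axis) for the 7 family genes called higher with LPS; points are libraries and lines join the means of 2 libraries. From DMSO + LPS to 32 µM of **1** the lines of Gsta1 and Gsta2 go up, those of Gstt4, Gstt1 and Gstp3 go down, and Gstp1 and Ptges were not called; the genes were chosen on the same 2 DMSO + LPS libraries.

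Of the 32 family genes in the table, 12 had under 100 counts over all libraries, Gsta4 and Mgst1 among them. Their summed counts were highest in replicate 1 at 10 µM, the library with 738 epithelial counts, at 141. Replicate 2 at 32 µM came next with 40 counts and no epithelial count, then replicate 1 at 3.2 µM with 33 counts and 115 epithelial counts, and replicate 1 at 32 µM with 29 counts and no epithelial count. The other 6 libraries had 8 to 16. Without Gsta4 the sums were 99 in replicate 1 at 10 µM, 30 in replicate 1 at 3.2 µM, and 17 and 27 in replicates 1 and 2 at 32 µM. The part of other cells in these counts was not tested.

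**Figure D5:**
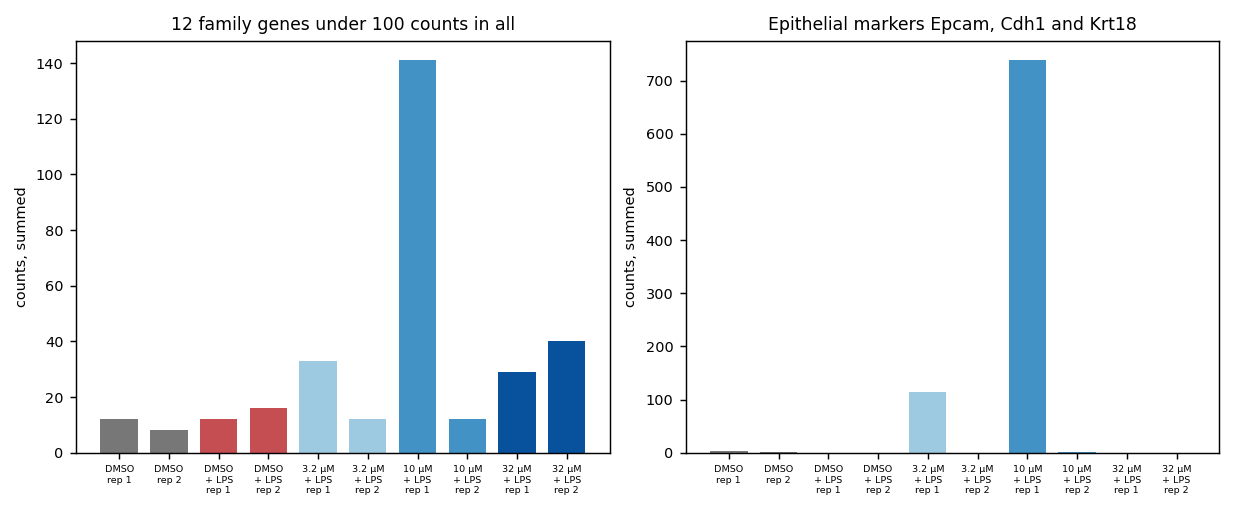
Counts summed over the 12 family genes with under 100 counts in all (left panel) and over the epithelial markers Epcam, Cdh1 and Krt18 (right panel), 1 bar per library, vertical axes in counts from 0. Replicate 1 at 10 µM is the highest bar in both panels, at 141 and 738 counts.

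The genes around the transferases in glutathione metabolism changed in part. Their counts stand against 28.2% of all genes called with LPS (14.6% higher and 13.6% lower) and 4.20% called at 32 µM (1.29% higher and 2.91% lower). Of 10 genes for glutathione supply and turnover, all tested, LPS raised 5. The 5 do not all act in supply: Chac1, a glutathione-degrading enzyme, rose by 1.74 on the log2 scale (adjusted p = 5.15e-06). Among the others, Slc7a11, the cystine carrier, rose by 3.78 (adjusted p = 6.37e-08) and Slc3a2, its partner chain, by 0.89 (adjusted p = 1.44e-06). Gsr, glutathione reductase, rose by 0.73 (adjusted p = 1.10e-05). At 32 µM, 2 of the 10 rose over DMSO + LPS, and these are the 2 chains of the enzyme that makes the first step of glutathione synthesis. Gclc, the catalytic chain, rose by 0.98 (SE 0.11, adjusted p = 0.00107) and Gclm, the modifier chain, by 0.88 (SE 0.071, adjusted p = 1.54e-04). The median of the 10 was 0.40.

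Of 18 genes for the export and breakdown of glutathione conjugates, 12 could be tested, and at 32 µM 2 rose and 1 fell. The transporters Abcc4 and Abcc3 rose by 0.99 (adjusted p = 9.27e-05) and 0.68 (adjusted p = 3.67e-04), and the dipeptidase Dpep2 fell by 0.75 (adjusted p = 5.04e-04). With LPS 3 of the 12 were called, a share near that of all genes: Abcc1, a transporter of glutathione conjugates, rose by 1.36 (adjusted p = 3.45e-07), Dpep2 rose by 0.72 (adjusted p = 8.67e-05) and Abcc3 fell by 2.16 (adjusted p = 7.76e-08). Abcc3 and Dpep2 thus moved one way with LPS and the other way with **1**; the comparisons share the DMSO + LPS libraries.

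Of 14 peroxidases, glutaredoxins and related enzymes that use glutathione, 12 passed the count filter, but Gpx2 passed only through the 2 libraries with epithelial transcripts and had 0 counts in DMSO, DMSO + LPS and 32 µM, which leaves 11 with counts in these comparisons. At 32 µM 1 of the 11 was called, the glutaredoxin Glrx, which fell by 0.78 (adjusted p = 4.22e-04). LPS raised 3 of the 11, Glrx by 3.20 (adjusted p = 3.46e-08), Esd, an esterase of glutathione thioesters, by 1.67 (adjusted p = 2.18e-08) and Gpx3, an extracellular peroxidase, by 2.48 (adjusted p = 4.59e-04), and lowered the peroxidase Gpx4, by 0.72 (adjusted p = 0.00329), so that 4 of 11 were called, beside 28.2% of all genes. In these 4 lists edgeR called 0 genes at 10 µM and 0 at 3.2 µM. At an unadjusted p below 0.05 the numbers at 10 µM were 2, 4, 4 and 2 in the order of the text, and at 3.2 µM 1, 0, 2 and 1. DESeq2 and the likelihood ratio test each called 1 gene of the superfamily list at 10 µM, lower, and 0 others. Without the 2 libraries with epithelial transcripts edgeR again called 0 at both doses, and the numbers at an unadjusted p below 0.05 were 1, 2, 3 and 2 for 10 µM, or 1, 0, 1 and 0 for 3.2 µM.

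The genes most like each of the 5 members called at 32 µM against DMSO + LPS, over the 10 libraries, were found by the smallest root mean square difference of centred log2 CPM among 11190 tested genes with a mean of at least 1 CPM. For Gsta1 these were Pglyrp3 (0.584), Nqo1 (0.651) and Gsta2 (0.732). For Gsta2 they were Adm (0.395), Glis3 (0.419) and Adh7 (0.438), and for Gsta3 Serinc2 (0.443), Sstr5 (0.545) and Rhpn2 (0.598). For Gstm1 they were Taldo1 (0.0718), Tsku (0.0746) and Creg1 (0.0874), and for Mgst2 Creg1 (0.129), Pdgfa (0.135) and Gstm1 (0.146). These differences grow with a gene's own range and count noise, so their sizes are not compared between members. Creg1 is near both Gstm1 and Mgst2, and Gstm1 is among the 3 nearest to Mgst2. These are descriptions over libraries of 5 conditions, and nothing was tested.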

How the data were processed

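RNA was measured in 10 libraries of RAW264.7 cells. Per the study's methods, poly(A) RNA was made into directional libraries and sequenced as paired reads on 1 lane. The submitters' processing notes name Trimmomatic, FastQC, STAR, DESeq2 and the mm10 build. The counting tool, its use of strand and its annotation are not given in the sources used here. The authors deposited raw counts per Ensembl gene, without normalization, and the column of every library matched its label. Other deposited tables of comparisons were not used here.

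Symbols were found for 42548 of 43432 identifiers (GENCODE M21, GRCm38). Counts were kept by filterByExpr (minimum count 10), scaled by TMM and fitted in edgeR 4.0.16 (R 4.3.3) with 1 mean per condition, 5 residual degrees of freedom and a common biological coefficient of variation of 0.128. Totals of 45966803 to 58976377 counts limit the precision of genes with few counts. The steps were tested on simulated data, where 89 of 100 log2 changes of 1 and 96 of 100 of 2 were recovered, with 3 false calls. Changes were simulated only in genes above 1 CPM in DMSO + LPS. The alpha genes lay below that level, so the simulation does not cover them. Levels per length use the union of a gene's exons.

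The 10 genes, the other lists and the markers were chosen with earlier results of these data known. The lists hold 24 further transferases and related genes, 10 for glutathione supply and turnover, 18 for conjugate export and breakdown, and 14 other glutathione-using enzymes. The rule for naming named every member, the genes of a list called at 32 µM (at most 6) and those called with LPS (at most 4, by adjusted p). A comparison of amino acid sequences was not made, and transcripts were compared instead. The marker lists for hepatocytes, T cells and B cells reached sums of at most 0.236, 0.0698 and 0.354 CPM.

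Results were recomputed with size factors from DESeq2 or library totals alone, without the count filter, with genes of 1 CPM or more on average, with a replicate block, with the short-transcript score in the fit, and by the likelihood ratio test, DESeq2 1.42.0, other thresholds, fits of only the 4 libraries compared, and fits with each library left out. Leaving out the 2 libraries with epithelial transcripts, crossing replicate numbers, summing Gsta1, Gsta2 and Gm10639, and the motif TGANTCA were chosen after seeing the data.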

Additional observations from a re-analysis of the deposited data

How the results depend on the processing

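The counts of 5 called genes, with LPS and at 32 µM against DMSO, stayed within 1.5 times under every alternative run. With 2 libraries per condition, genes with few counts (Gsta4, and Mgst1 untested) limit what can be seen, and the calls at 10 µM rest on the spread pooled over all libraries. At 32 µM against DMSO + LPS a 2-fold threshold left 3 calls in place of 5. At 10 µM against DMSO + LPS, 3 calls became 0 on the 4 libraries compared and 0 without the 2 libraries with epithelial transcripts, and 0 to 3 with single libraries left out. Between 10 and 32 µM, 1 call became 3 with the short-transcript score, 3 with the likelihood ratio test, 2 by adjusted p alone, 0 on 4 libraries, 0 without the 2 epithelial-transcript libraries and 0 to 1 with single libraries left out. Between 3.2 and 10 µM, 1 call became 2 without a count filter, 3 with the score, 2 with the likelihood ratio test, 2 with DESeq2, 0 on 4 libraries, 0 without the 2 epithelial-transcript libraries and 0 to 1 with single libraries left out. Apart from the smaller number of libraries in some fits, the cause was not tested.

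The labels do not say that a replicate number marks a shared origin. Across genes, the replicate differences of DMSO and the 3 doses correlated with each other at 0.30 to 0.83 in every pair, while those of DMSO + LPS correlated with the other 4 conditions at -0.42 to -0.17, so the numbers were not taken as pairs. With the replicate number as a block the members called were 5, 5, 3, 0, 1, 1 and 5 in the 7 comparisons, as without it, and calls over all genes at 10 µM went from 122 to 174. With the numbers of DMSO + LPS crossed, the members called between 3.2 and 10 µM were 2, and calls over all genes were 223 at 10 µM. Over all alternatives, calls among all genes lay between 0 and 66 at 3.2 µM against DMSO + LPS (0 as reported, 66 on the 4 libraries compared, 8 by DESeq2, 6 with the short-transcript score), between 36 and 377 at 10 µM, and between 318 and 1394 at 32 µM (594 as reported).

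Some values that were not called changed sign. With single libraries left out, the log2 fold change with LPS lay between -0.11 and 0.84 for Gsta3 and between -4.45 and 0.14 for Gsta4. At 32 µM against DMSO + LPS it lay between -0.49 and 0.047 for Gstp1 and between -0.021 and 0.16 for Mgst3. At 10 µM it lay between -0.19 and 0.25 for Gstp1 and between -0.068 and 0.26 for Mgst3. At 3.2 µM it lay between -0.28 and 0.085 for Gsta1, -3.16 and 3.78 for Gsta4, and -0.057 and 0.12 for Mgst3. From 10 to 32 µM it lay between -1.75 and 2.52 for Gsta4, -0.052 and 0.14 for Gsto1, and -0.21 and 0.14 for Mgst3. From 3.2 to 10 µM it lay between -0.035 and 0.41 for Gstp1, -0.025 and 0.16 for Gsto1, and -0.10 and 0.24 for Mgst3. With the short-transcript score the values were -0.076 for Gsta4 and -0.062 for Mgst3 at 3.2 µM, and 0.076 and 0.026 from 10 to 32 µM. Without the 2 epithelial-transcript libraries they were -0.19 for Gstp1 and -0.068 for Mgst3 at 10 µM, -3.16 for Gsta4 at 3.2 µM, 2.52 for Gsta4 and 0.14 for Mgst3 from 10 to 32 µM, and -0.14 for Gstp1, -0.030 for Gsto1 and -0.095 for Mgst3 from 3.2 to 10 µM.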
